A study of Mus musculus with 6 samples.

Results

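The cytoplasmic ribosomal protein genes, 78 genes taken by symbol, were followed through 6 bulk RNA-seq libraries of mouse brain. All but Rps4l, annotated as a processed pseudogene, encode proteins of the large or the small subunit of the ribosome outside mitochondria. Members were the genes whose symbol is Rpl or Rps, a number and at most 1 further letter, or is Rplp0, Rplp1, Rplp2 or Rpsa, with a mean of at least 10 normalised counts over the 6 libraries. A normalised count is the count of reads of a gene divided by 1 factor per library, as deposited. The name rule matched 83 symbols and the level rule kept 78 of them, 46 of the large and 32 of the small subunit, among 17391 genes that passed the same level and 78298 identifiers in all. The rule leaves out some ribosomal protein genes whose symbols have another form, such as Fau, Rack1, Rps3a1, Rpl36al and Rpl22l1.

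Whole left brains of male mice were used, from 3 wild-type animals and 3 homozygotes for the allele named Top2b-low. That allele, made by CRISPR/Cas9, has a degron tag at the 5′ end of the coding sequence of Top2b, the gene of DNA topoisomerase IIβ. The tag is AID, by which a protein can be destroyed when auxin is present. No mouse of either group received a compound. The labels give 10 weeks as the age in one place and 3.5 months in another. Replicate 3 of each genotype has a library name that begins with N22, and the labels do not say what N22 stands for. The name of Top2b-low replicate 3 also ends in dNdN where those of replicates 1 and 2 end in Homo, while its genotype label is the same. Replicates are taken as separate mice, as the series text counts mice.

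A ribosome reads messenger RNA into protein. It joins a small subunit, which decodes the message, to a large subunit, which forms the peptide bond, and most of their proteins are present once per ribosome. Many messages for ribosomal proteins begin with a terminal oligopyrimidine tract, a C followed by a run of C and T (U in the message), through which the mTOR pathway and the RNA-binding protein Larp1 control their translation. In neurons ribosomal protein messages are also found in axons and dendrites.

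The start regions of 10 members are shown because they span most of the range of the differences described below. The first 5 are those with an entry in the RefSeq promoter table (GRCm38.p6) that differed most between the N22 libraries and the others, and the last 5 those that differed least. Each sequence is read 5′ to 3′ on the gene's strand and covers 30 bases, 15 before and 15 from the annotated start. Capitals mark a C followed by at least 5 further C or T on that strand.
Rps28, chr17:33824548-33824577 minus strand: ggtaccgcgtgcggtctcgcgagagcgaaa
Rpl38, chr11:114668565-114668594 plus strand: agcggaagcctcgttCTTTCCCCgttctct
Rpl41, chr10:128549154-128549183 minus strand: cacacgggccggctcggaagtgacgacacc
Rplp2, chr7:141447636-141447665 plus strand: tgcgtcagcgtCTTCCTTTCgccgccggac
Rps23, chr13:90923107-90923136 plus strand: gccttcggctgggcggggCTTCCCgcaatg
Rpl4, chr9:64173372-64173401 plus strand: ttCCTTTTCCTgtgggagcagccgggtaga
Rps4x, chrX:102189377-102189406 minus strand: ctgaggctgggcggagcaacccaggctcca
Rplp0, chr5:115559452-115559481 plus strand: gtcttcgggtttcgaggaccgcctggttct
Rpl6, chr5:121204486-121204515 plus strand: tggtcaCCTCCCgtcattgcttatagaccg
Rps15a, chr7:118116133-118116162 minus strand: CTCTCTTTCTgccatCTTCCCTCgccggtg

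Of the 57 members with an entry in that table, 34 (59.6%) held such a run in the 30 bases, where 6883 of 27025 genes with an entry (25.5%) did. A further 21 members had no entry. In both sets of 5 printed above, 3 sequences hold the run. A gene with more than 1 entry was counted if any of them held a run, and over all single entries the share was 22.5% (7384 of 32851). A run is a match of letters in the bases around an annotated start, before or after it. It was not matched to starts used in these mice.

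The members were present in every library, at a mean of 160.4 (Rps27l) to 8085 (Rpl3) normalised counts, with a median of 2545. They lie on 19 chromosomes, 4 of them on X, and their coding length runs from 75 bases (Rpl41) to 1257 bases (Rpl4) with a median of 453 over the 77 with a coding sequence. Rps4l has none, being annotated as a transcribed processed pseudogene, and it is a member by its name only. Per kilobase of annotated transcript the median was 3398 normalised counts. Rplp1, an acidic protein of the ribosomal stalk, stood highest at 8845, then Rps15 at 7549 and Rpl9 at 6335. Rps27l stood lowest at 321.5, followed by Rps20 at 421.8, which was divided by an annotated transcript of 3706 bases, and Rpl5 at 1299. The members nearest the level rule on the upper side were Rps27l, Rps4l at 276 and Rpl36 at 702. On the lower side were Rpl3l, at a mean of 2.81, Rpl6l at 2.75 and Rpl39l at 0.758, while Rpl10l and Rpl32l had no read in any library. Mouse ribosomal protein genes have many near-identical processed copies, among which reads can be split. The 300 symbols of the form Rpl or Rps with the ending -ps summed to 726 to 1150 normalised counts per library. That was 0.308% to 0.532% of the members' sum, so little was assigned to these symbols. Copies with another form of symbol are not in this sum. What was taken from or given to single members is not known.

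Library totals ran from 16963067 to 17413959 reads in the 4 libraries outside N22 and were 28629911 and 35246703 in the N22 libraries. Top2b, the targeted gene, stood at 3160, 3014 and 2485 normalised counts in the wild-type libraries, in the order of their replicate numbers, and at 2152, 2314 and 1965 in the Top2b-low libraries. Values of 3 libraries are given in this order throughout. The groups did not overlap and the Top2b-low mean was 25.7% lower (two-sided exact permutation p = 0.1, the smallest that 3 against 3 allows). Markers of neurons, astrocytes, oligodendrocytes and microglia were present in all 6 libraries. Markers of the cerebellum and hindbrain were far lower in the N22 libraries, as given below.

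The share of all reads that fell in the 78 genes was 0.963%, 0.914% and 1.17% for wild type and 0.922%, 0.790% and 1.22% for Top2b-low. Both N22 libraries were thus above the other 4, and Top2b-low replicate 2 was below all. Counting error was small beside these steps, since the 95% Wilson intervals, which cover counting error only, were at most 0.00919 percentage points wide. Large subunit genes took 0.593%, 0.568% and 0.721% of reads for wild type against 0.571%, 0.497% and 0.746% for Top2b-low. Small subunit genes took 0.370%, 0.346% and 0.449% against 0.351%, 0.293% and 0.476%. The 2 subunits therefore had the same order of libraries. In bulk tissue a lower share of a message can come from fewer cells that hold it or from less of it per cell, and these cannot be told apart here.

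Relative to each gene's own mean over the 6 libraries, on the scale of log2(normalised count + 1), the median member stood at −0.01, −0.09 and 0.21 for wild type and at −0.07, −0.33 and 0.29 for Top2b-low. Over all 17391 genes the same medians lay between −0.0048 and 0.013. The lowest value of a member fell in Top2b-low replicate 2 for 74 of 78 genes. The highest fell in Top2b-low replicate 3 for 58, in wild type replicate 3 for 19 and in wild type replicate 1 for Rps4l. The members also spread most in these 2 Top2b-low libraries, with an SD over genes of 0.19 in replicate 2 and 0.26 in replicate 3 against 0.061 to 0.098 in the other 4.

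**Figure D1:**
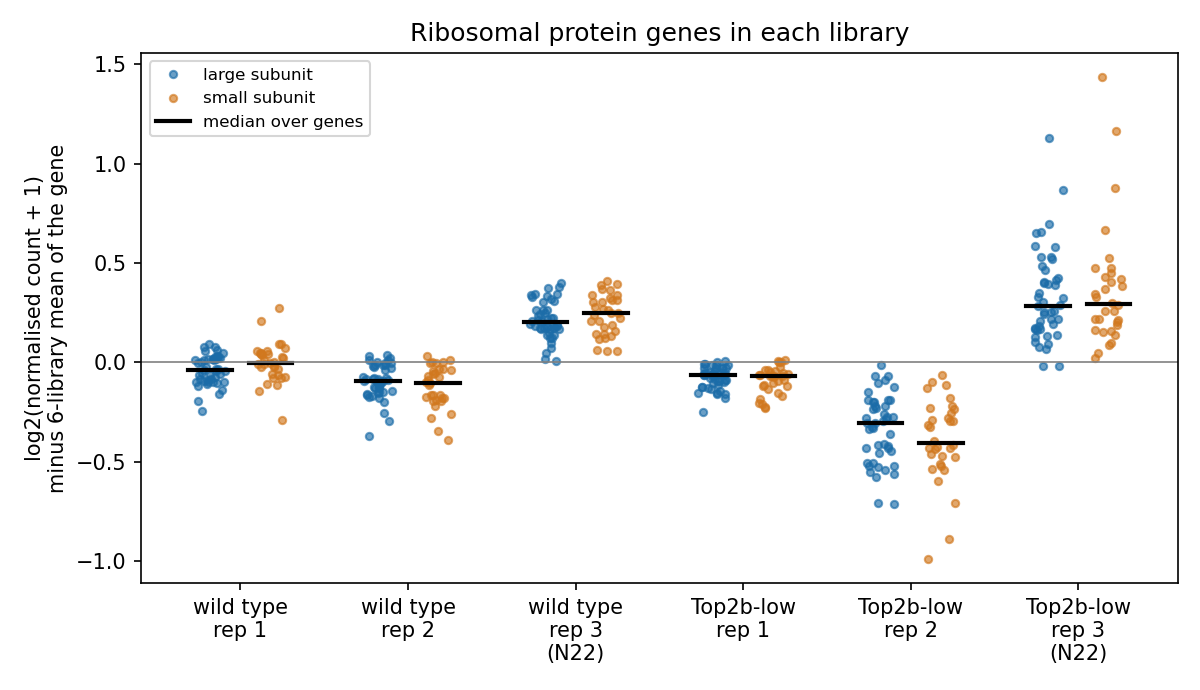
Deviation of each of the 78 genes from its own mean over the 6 libraries, in log2(normalised count + 1) units (y axis), by library (x axis); each point is a gene, blue for the large and orange for the small subunit, and the bar is the median over genes. Both subunits sat highest in the N22 libraries and lowest in Top2b-low replicate 2, whose medians were −0.31 for large and −0.41 for small subunit genes.

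Whether the Top2b-low allele moved ribosomal protein messages was asked by comparing the 3 Top2b-low with the 3 wild-type libraries. No member passed limma's test at an adjusted p under 0.05 in either direction, 0 of 78, where the background over all genes was 0% (0 of 17391). The targeted gene Top2b did not pass in this fit (log2 difference −0.42, SE 0.11, unadjusted p = 0.00629 by limma), so it could miss a change of that size. No member had an unadjusted p under 0.05 by limma, where 262 of all genes tested did. On the recovered reads edgeR's quasi-likelihood test called 0 members, as did DESeq2, both with a background of 0%. Both had 0 members at an unadjusted p under 0.05, against 250 of all genes tested by edgeR and 168 by DESeq2. Limma with a term for N22 called 0 members and 0 of all genes tested, with 0 and 1011 at an unadjusted p under 0.05. DESeq2 with a term for N22, a setting chosen after the data had been seen, also called 0 members (background 0.0805%). The values were lower in Top2b-low mice for 70 members and higher for 8, with log2 differences from −0.23 to 0.23 and a median of −0.06. The median was −0.06 for the large and −0.08 for the small subunit, and −0.0021 over all genes tested. The lowest adjusted p of any member under any of 21 settings was 0.697.

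The members farthest apart between the genotypes showed how far single libraries carried the difference. Rps29, a small zinc-binding protein of the small subunit, had 1263, 1177 and 1951 normalised counts in wild type against 1341, 834 and 4180 in Top2b-low mice. Its Top2b-low libraries held both the lowest and the highest value of all 6, and the log2 difference was 0.23 with an SE of 0.54. Rps27l, the p53-inducible paralogue of Rps27, had the lowest difference, −0.23 (SE 0.22), from 182, 147 and 186 in wild type against 134, 114 and 200 in Top2b-low mice. Rpl34 of the large subunit stood at 1357, 1297 and 1523 against 1176, 903 and 1586, a difference of −0.22 (SE 0.19). The groups of all 3 genes overlapped. Rps4l, Rps12 and Rps14 had differences of −0.18, −0.17 and −0.16, and on the other side Rpl41, Rpl5, Rpl38 and Rpl35 had 0.13, 0.12, 0.11 and 0.02.

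Only 1 member, Rpl6 of the large subunit, had groups that did not overlap. Its normalised counts were 4166, 4117 and 4542 in wild type against 4045, 3837 and 4069 in Top2b-low mice, a difference of the means of −6.82% (log2 difference −0.10, SE 0.07, unadjusted p = 0.205 and adjusted p = 1 by limma). Across all genes tested 5.74% had groups that did not overlap, 3.04% in this direction. The 1 of 78 among the members was below that background.

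The direction of the genotype difference depended on the libraries compared. Among the 4 libraries outside N22 the values of all 78 members were lower in Top2b-low mice, with a median of −0.15. Of all 17391 genes tested 8993 were lower, and the median was −0.0055. At an unadjusted p under 0.05 there were 9 members, against 818 of all genes tested, and 0 of either passed limma's adjusted test. The N22 pair is 1 library against 1 with no replicate. In it 58 members were higher in Top2b-low and 20 lower, with a median of 0.07, where 51.8% of all genes tested were higher. So 58 members were lower in the first set and higher in the second. For Rps29 the values were −0.20 and 1.098, for Rps28 −0.36 and 0.75, for Rpl39 −0.32 and 0.65 and for Rpl38 −0.20 and 0.73.

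Top2b-low replicate 2 held the low side outside N22. Its members were a median of 0.26 log2 units below those of Top2b-low replicate 1, its own genotype, with 74 of 78 lower. Over all genes tested the same median was −0.0026, with 50.5% lower. Against wild type replicates 1 and 2 the members' medians in Top2b-low replicate 2 were −0.32 and −0.24. Top2b-low replicate 1 differed less from the same wild-type libraries, with medians of −0.06 and 0.02. The 2 wild-type libraries differed from each other by a median of −0.07 (replicate 2 minus replicate 1). Among the marker sums, its cerebellar level (68412) was the highest of the 4 libraries outside N22, its hindbrain level (641) the lowest and its erythroid level (30385) the second highest, and their part in its low values was not tested. Without Top2b-low replicate 2 the median genotype difference over all remaining libraries was 0.07, with 60 members higher. In that fit 48.8% of all genes tested were higher. Without Top2b-low replicate 3 the members' median was −0.25, with all 78 lower, where 52.0% of all genes tested were higher. Without wild type replicate 3 the members' median was 0.02.

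**Figure D2:**
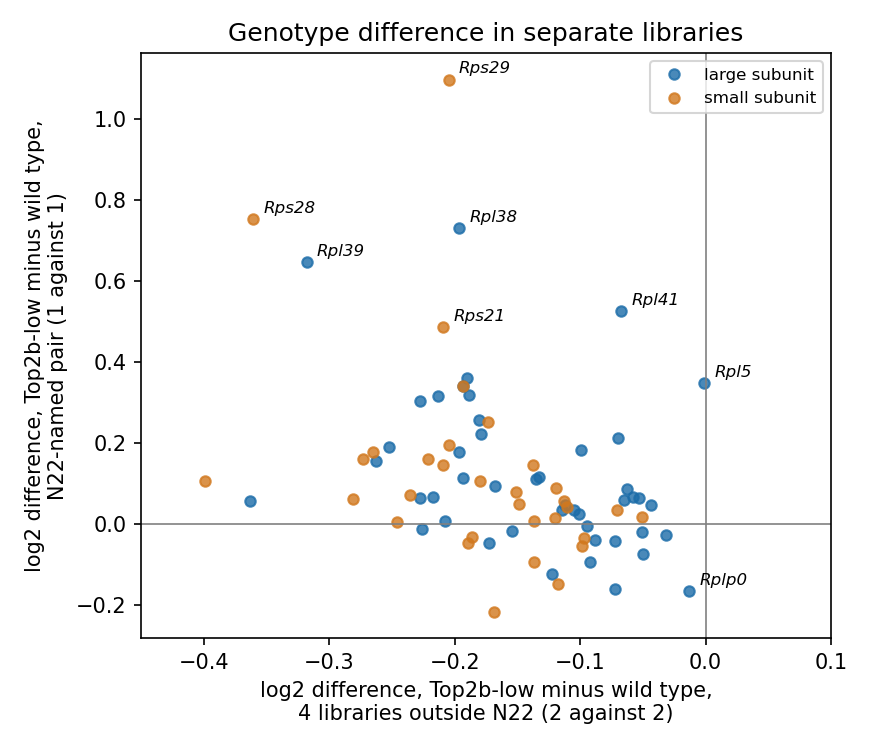
Log2 difference of Top2b-low minus wild type for each of the 78 genes among the 4 libraries outside N22 (x axis, 2 against 2) and in the N22 pair (y axis, 1 against 1), with the subunits in blue (large) and orange (small). All points lie left of 0 on the x axis, and 58 of 78 lie above 0 on the y axis, with Rps29 highest at 1.098.

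The question whether the genotype difference itself differed between the N22 pair and the other libraries was tested with an interaction term. The estimate was above 0 for 72 of 78 members, with a median of 0.24, where 51.6% of all genes tested were above 0. Of the members 0 of 78 passed limma's adjusted test, where the background was 0.023%. At an unadjusted p under 0.05 by limma there were 11 members, against 624 of all 17391 genes tested. EdgeR's test also called 0 (background 0.00575%), with 11 members unadjusted against 765 of all genes tested. Rps29 had the largest estimate, 1.30 (SE 0.31, adjusted p = 0.741), then Rps28 with 1.11, Rpl39 with 0.97, Rpl38 with 0.93 and Rps21 with 0.70. Rplp0 had the lowest, −0.15 (SE 0.12), and among the next were Rpl6 with −0.09, Rps4l with −0.05 and Rpl7a with −0.02. The fit has 2 residual degrees of freedom and 1 library for each genotype within N22.

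The N22 libraries held more of these messages than the other 4. With genotype in the model, all 78 members had a higher value in the N22 libraries, and 61 of 78 rose past limma's adjusted test with 0 lower, where 11.3% of all genes tested were called higher. The 61 were 39 of 46 large and 22 of 32 small subunit genes. The median member was 0.35 log2 units higher, against −0.0046 over all genes tested, and the mean level of the N22 libraries exceeded that of the others by 4.16% to 166%, with a median of 27.2%. The 2 N22 values were both above all 4 others for 71 of 78 members, where 22.8% of all genes tested had such groups. EdgeR called 66 members higher (background 14%), 61 of them shared, and DESeq2 60 (background 9.57%), 56 of them shared.

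Depth and tissue content moved with the same split. The N22 libraries had more reads, as given above. Of all genes tested, 11.3% were called higher in these libraries and 16.7% lower. All 15 cerebellar neuron markers, such as the granule cell genes Gabra6 and Cbln3, were called lower in them, with summed levels of 17582 and 20019 normalised counts against 56416 to 68412 in the others. All 7 tested hindbrain markers were lower, with sums of 97.0 and 147 against 641 to 1565. Of 6 astrocyte markers 4 were called lower (34390 and 35858 against 45899 to 48429), as were 3 of 5 endothelial, 2 of 6 oligodendrocyte and 1 of 5 choroid plexus markers. Erythroid markers were called lower for 4 of 5, and their sum was highest in Top2b-low replicate 1 (114262 against 3705 to 30385 elsewhere). Of 6 microglial markers 1 was higher, as was 1 of the 2 tested skeletal muscle markers. Pan-neuronal markers had 1 of 8 lower, with a median difference of 0.01 and sums of 135841 to 146886 in the 6 libraries. The calls of 1 of 5 choroid plexus, 1 of 8 pan-neuronal and 1 of 6 microglial markers were near the shares over all genes. The part of these differences in the result on ribosomal proteins was not tested.

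Leaving out Top2b-low replicate 3 leaves wild type replicate 3 as the 1 N22 library, assumed to vary like the others, and the N22 difference is then that within wild type. In that fit 8 members were called higher, among them Rps20, Rpl12, Rps23, Rps10, Rpl38, Rpl27 and Rpl41, where the background was 2.16%, while all 78 values stayed above 0 with a median of 0.26. Fitted on the wild-type libraries alone, 1 N22 library against 2 others that supply the spread, the same differences gave 39 members called higher (background 6.05%). The Top2b-low libraries alone, also 1 against 2, gave 54 (background 5.03%) and a median of 0.47. The N22 difference was larger in Top2b-low than in wild type for 72 of 78 members, which is the sign of the interaction above, and that difference passed the test for 0 of them.

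The 5 members with the largest N22 differences were all short. Rps29 averaged 3066 normalised counts in the N22 libraries and 1154 ± 224 (SD, n = 4) in the others, a log2 difference of 1.33 (SE 0.25, adjusted p = 0.00399 by limma), and its values are given above. Rps28, which sits at the mRNA exit of the small subunit, had 638, 582 and 938 in wild type against 634, 354 and 1583 in Top2b-low mice (1.18, SE 0.25). Rpl38, a large subunit protein known for its role in the translation of Hox messages, had 983, 869 and 1482 against 944, 688 and 2461 (1.15, SE 0.18). Both N22 values of each gene were above the other 4, and the Top2b-low one was the higher. Rps21 had 1981, 1643 and 2744 against 1904, 1278 and 3845 (0.95, SE 0.17). Rpl41, the shortest ribosomal protein, had 1515, 1465 and 2279 against 1614, 1252 and 3282 (0.91, SE 0.13, adjusted p = 0.000958 by limma). Without Top2b-low replicate 3 the calls of Rps29, Rps28 and Rps21 ended (adjusted p = 0.0863, 0.175 and 0.0941 by limma), with values of 0.68, 0.62 and 0.60.

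**Figure D3:**
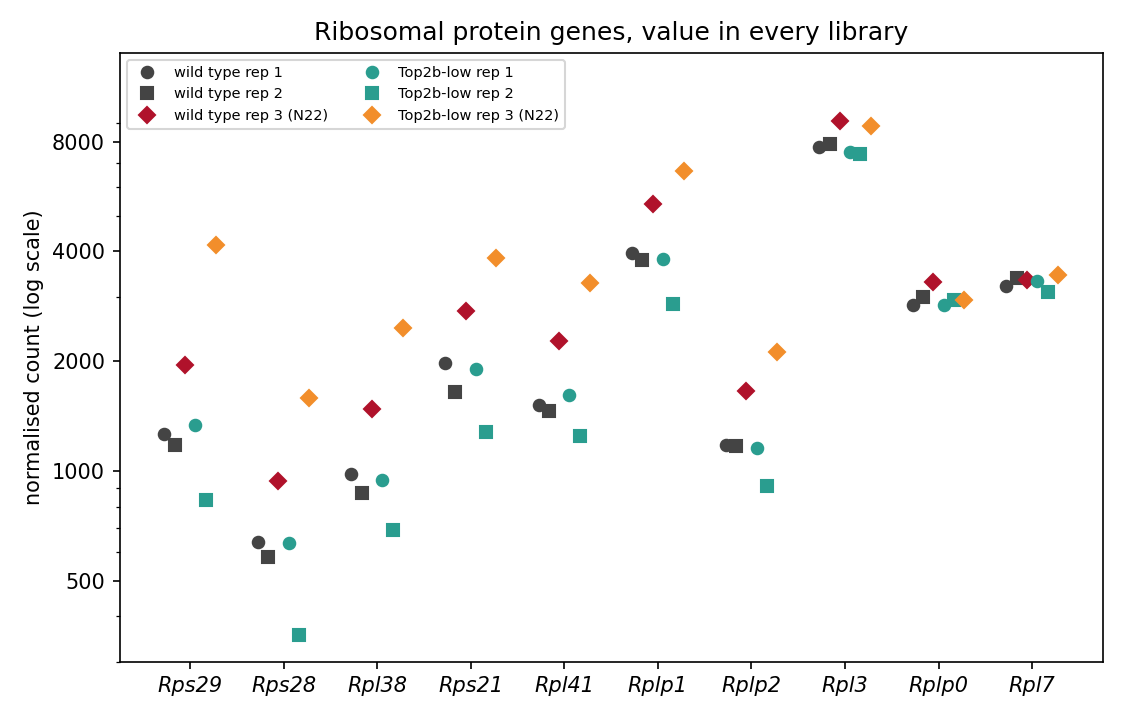
Normalised count (y axis, log scale) of 10 ribosomal protein genes in each of the 6 libraries, with wild type in black, Top2b-low in green and the N22 libraries as red (wild type) and orange (Top2b-low) diamonds. In the first 7 genes both diamonds lie above all other points, in Rpl3 they do by a small step, and in Rplp0 and Rpl7 1 diamond lies among the other points.

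The stalk proteins passed the test and their anchor did not. Rplp1 and Rplp2, acidic proteins that recruit elongation factors to the large subunit, were 67.3% and 71.2% higher in the N22 libraries. Rplp1 had 3961, 3782 and 5396 in wild type against 3805, 2872 and 6665 in Top2b-low mice (0.75, SE 0.13, adjusted p = 0.00234 by limma). Rplp2 had 1176, 1169 and 1654 against 1158, 912 and 2125 (0.77, SE 0.12, adjusted p = 0.00176 by limma). Both calls ended without Top2b-low replicate 3 (adjusted p = 0.0662 and 0.0505), with values of 0.48 and 0.50. Rplp0, which anchors the stalk to the subunit and is often used as a reference gene, had 2853, 3002 and 3293 against 2856, 2945 and 2939. Its groups overlapped and its log2 difference was 0.09 (SE 0.06, adjusted p = 0.275 by limma). The difference between Rplp0 and its partners was not tested.

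Rpsa, a small subunit protein also known as the laminin receptor, was 22.5% higher in the N22 libraries, at 5129, 5156 and 6155 in wild type against 4995, 4937 and 6232 in Top2b-low mice (0.29, SE 0.05, adjusted p = 0.00336 by limma). Without Top2b-low replicate 3 the value was 0.26 and the adjusted p 0.0656. The 5 members with the smallest changes among those called were Rpl7a (0.21), Rpl15 (0.23), Rpl3 (0.23), Rpl8 (0.23) and Rpl21 (0.24), all of the large subunit. Rpl3, which lies near the peptidyl transferase centre, had 7757, 7906 and 9105 against 7493, 7400 and 8846, so a small step separated the N22 libraries from 4 tight values. Without Top2b-low replicate 3 the calls of these 5 ended, with adjusted p from 0.108 to 0.337, and their values were then 0.22, 0.16, 0.22, 0.23 and 0.18 in the same order.

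The 17 members that did not pass had values of 0.06 to 0.50. They were the large subunit genes Rpl39, Rpl23a, Rpl22, Rpl4, Rplp0, Rpl6 and Rpl7 and the small subunit genes Rps27l, Rps3, Rps27a, Rps14, Rps13, Rps4l, Rps6, Rps24, Rps4x and Rps15a. Rps6, the small subunit protein that S6 kinase phosphorylates, was among them at 0.15 (SE 0.07). Rpl39, which lines the exit tunnel, had the largest value, 0.50 (SE 0.19), from 910, 885 and 905 in wild type against 844, 613 and 1419 in Top2b-low mice. For that gene Top2b-low replicate 3 was high and Top2b-low replicate 2 low, and the other 4 libraries lay close together.

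The paralogue pairs differed in how far the second form was present. Rps27 had 1329, 1107 and 1505 normalised counts in wild type against 1290, 896 and 1794 in Top2b-low mice and was called higher in the N22 libraries by limma (0.52, SE 0.14), but not by DESeq2 (adjusted p = 0.0828). Rps27l, whose values are given above, had 0.44 (SE 0.16, adjusted p = 0.0637 by limma). Rpl10 had 3391, 2995 and 3823 against 3134, 2853 and 3583 (0.26, SE 0.07), while Rpl10l, known from testis, had 0 reads in every library, which allows up to 1.77 to 3.76 normalised counts in a library. Rpl3l, known from striated muscle, had 20 reads in all and Rpl39l 6. Rpl22 had 1441, 1336 and 1488 against 1388, 1208 and 1690 (0.24, SE 0.09, adjusted p = 0.0592 by limma). Its paralogue Rpl22l1 stood at 1172, 1006 and 1127 against 1023, 620 and 1257 (0.35, SE 0.18, adjusted p = 0.178 by limma). Both N22 values of Rpl22 were above the other 4, while those of Rpl22l1 overlapped with them. Rps4x, on the X chromosome, had 3295, 3315 and 3459 against 3229, 3066 and 3546 (0.12, SE 0.06). Rps4l had 330, 228 and 328 against 234, 255 and 282 and was not called. Rpl36a and Rpl36al, which encode nearly the same protein, were both called higher by limma, by 0.55 (SE 0.14) and 0.45 (SE 0.12).

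The size of the N22 difference went with the length of the coding sequence. Length classes were chosen after the data had been seen. The 10 members of up to 300 bases had a median difference of 0.80, the 27 of over 300 to 450 had 0.54, the 19 of over 450 to 600 had 0.32 and the 21 of over 600 had 0.26. Called higher were 8, 24, 15 and 14 of them. Other tested protein-coding genes in these classes, numbering 305, 649, 839 and 12643, had medians of 0.24, 0.19, 0.10 and −0.05, and 35.1%, 27.1%, 22.2% and 8.58% were called higher. Short genes thus stood higher in the N22 libraries outside the ribosome too. The members' medians were above those of the other genes in each class, a description with no test. The class of over 600 bases has no upper limit, while its members reach 1257 bases, so lengths were not matched in it. Levels were not matched in any class. Across the 77 members with a coding length, Spearman's rho between that length and the N22 difference was −0.70. With the mean level in place of the length it was −0.51. The members share libraries, so no p is given.

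The low values of Top2b-low replicate 2 followed length in the same way. Against Top2b-low replicate 1 the medians of the 4 classes were −0.49, −0.34, −0.26 and −0.14 among members, and −0.23, −0.16, −0.10 and 0.02 among other protein-coding genes. Spearman's rho with coding length across the 77 members was 0.70. The N22 effects of the 2 genotypes, which share no library, had a rho of 0.67 across the 78 members. For the genotype difference over all 6 libraries the rho with coding length was −0.17.

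**Figure D4:**
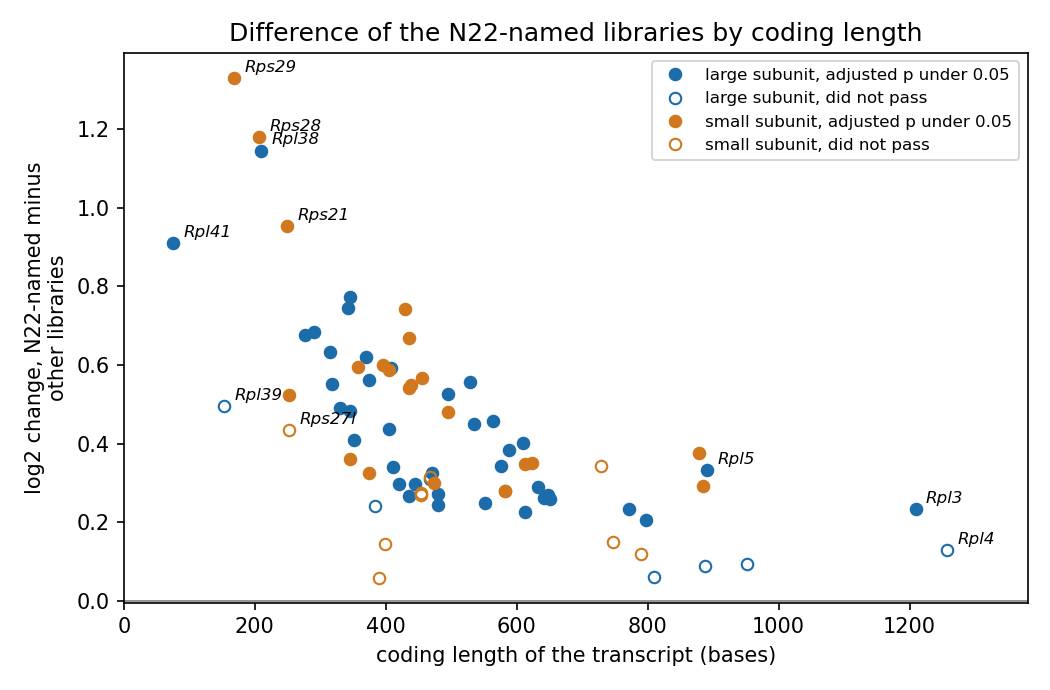
Log2 difference of the N22 libraries minus the others (y axis) against the coding length in bases (x axis) for the 77 members with a coding sequence; filled points passed limma's test at an adjusted p under 0.05 and open points did not, with blue for the large and orange for the small subunit. The members above 0.9 are all under 300 bases, and those over 600 bases reach at most 0.40.

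Members with and without the pyrimidine run around an annotated start were called in nearly the same share. Of the 34 with a run 27 were called higher in the N22 libraries, with a median of 0.41, and of the 23 without a run 18 were, with a median of 0.33. Rps28 and Rpl41, printed above without a run, were among the largest differences, and Rps15a, printed with 2 runs, was the smallest at 0.06.

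Other genes of protein synthesis were read from lists. Their counts stand beside a background of 11.3% of all genes tested called higher and 16.7% called lower in the N22 libraries. Among ribosomal and ribosome-bound proteins outside the naming rule, 3 of 7 rose in the N22 libraries by limma's test. Among them Fau, which carries the small subunit protein eS30, rose by 0.62 (SE 0.11), and Rpl36al as given. Rps27rt, a retrogene copy of Rps27 with which reads can be split, fell by 1.201 (SE 0.20), at a level of 24.3 to 83.8 normalised counts. The scaffold Rack1 had 0.13 (SE 0.06, adjusted p = 0.149 by limma). The median of the 7 was 0.35. Rps3a1, which was not in this list, had 0.08 (SE 0.05, adjusted p = 0.299 by limma).

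Translation factors and other messages known for a terminal oligopyrimidine tract had 2 of 20 higher and 2 lower, with a median of 0.03, shares no larger than the background. Gas5, a small nucleolar RNA host gene, rose by 0.60 (SE 0.12). The intermediate filament gene Vim fell by 0.59 (SE 0.08) and the initiation factor gene Eif2s3x by 0.19 (SE 0.06). Ribosome biogenesis genes had 5 of 44 higher and 6 lower, with a median of 0.02, shares near the background. Nhp2, of the pseudouridylation complex, rose by 0.65 (SE 0.13) and Eif6, which keeps the subunits apart, by 0.37 (SE 0.08), while Gnl3l fell by 0.35 (SE 0.05). Regulators of ribosomal protein synthesis had 2 of 21 higher and 5 lower, with a median of −0.18. The share called higher was below the background and the share called lower somewhat above it, with no test of either. The RNA-binding protein Larp4 fell by 0.58 (SE 0.07), the translation repressor Eif4ebp2 by 0.45 (SE 0.06) and the transcription factor Sp1 by 0.35 (SE 0.07).

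Mitochondrial ribosomal proteins, which build a separate ribosome, had 29 of 78 higher and 0 lower, with a median of 0.21. Mrpl41 rose by 0.68 (SE 0.09), Mrpl52 by 0.65 (SE 0.13) and Mrpl20 by 0.49 (SE 0.08). Nuclear-encoded respiratory chain genes had 57 of 80 higher and 0 lower, with a median of 0.35. Cox6a1 rose by 0.67 (SE 0.07), Cox5b by 0.63 (SE 0.10) and Ndufb7 by 0.50 (SE 0.07). The share of reads from mitochondrially encoded genes was 4.59% and 5.36% in the N22 libraries and 4.87% to 5.17% in the others. Between genotypes 0 members of any of these 6 lists passed limma's test, and their medians lay between −0.08 and 0.0054.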

How the data were processed

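Polyadenylated RNA was sequenced with a directional kit, per the labels' protocols. The deposited table holds a signal for each gene and library, the normalised count. RSEM and the mm39 build are named for it in the submitters' processing notes. The aligner, annotation, strand setting and RSEM version are not given in the sources. Every value was a whole multiple of 1 read (100% of values, tolerance 1e-06), so whole reads were recovered by dividing by that step, and the factors equalled DESeq2's size factors. In normalised counts, 3 reads are worth 1.77 to 3.76 by library.

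Symbols (51498 identifiers), chromosomes, biotypes and lengths came from GENCODE vM21 (GRCm38) by identifier. No coordinates of the table were used, because the builds differ. Levels per kilobase used the shortest APPRIS principal transcript. Start sequences are RefSeq's, of GRCm38.p6.

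Genes with a mean of at least 10 were tested on log2(normalised count + 1), which understates changes of low genes, with limma 3.58.1 (empirical Bayes with trend, two-sided, R 4.3.3) and Benjamini-Hochberg adjustment over all 17391 at 0.05. Genotype was fitted without covariate, N22 with genotype, and the interaction with both. EdgeR 4.0.16 (quasi-likelihood) and DESeq2 1.42.0 on the recovered reads, other normalizations, pseudocounts, filters, terms and single libraries left out were alternatives. The fits were checked on simulated counts.

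In an alternative fit, the replicate block, same-numbered libraries were taken as pairs, while the main genotype fit used no pairs. Deviations from the group means correlated at 0.33, 0.35 and 0.68 in same-numbered libraries. Pairs of unlike number gave 0.37 (wild type 1, Top2b-low 2) and 0.24 (wild type 2, Top2b-low 1), and −0.52 to −0.40 where 1 library was replicate 3. The correlations thus followed the N22 split and cannot show how replicates 1 and 2 pair. Libraries of a group differed beyond sampling noise (chi-square per degree of freedom 4.16 to 39.3).

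Named genes were Top2b, the stalk genes and Rpsa, the 5 highest and 5 lowest of each comparison, the 3 highest and lowest per kilobase and around the level rule, the paralogue pairs, and the 3 smallest p of each list. Rps6, Rps23, Rps15a, Rpl4, Rps3a1 and the genes called without Top2b-low replicate 3 were added after their values were seen. Some genes that the rule takes are not reported here. The members, lists, markers and tests were chosen with earlier results of these data known.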

Additional observations from a re-analysis of the deposited data

Results flagged for a closer look

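In 3 of the 31 members examined, Top2b-low replicate 2 stood below the other 3 libraries outside N22 by more than Dixon's 95% limit for 4 values. Rplp1 was at 2872 normalised counts there, where the other 3 were between 3782 and 3961. Rplp2 was at 911.7, with the others between 1158 and 1176, and Rpl21 at 3380, with the others between 4090 and 4210. Chance flags about 1 in 20 such groups.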

How the results depend on the processing

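The number of members called higher in the N22 libraries, 61, was within 1.5 times of that under every alternative run except 3: it was 40 with no filter on low values (background 3.76%), 39 in the wild-type libraries alone, and 8 without Top2b-low replicate 3, the latter 2 with 1 N22 library in the fit. Leaving out each library in turn gave 8 to 66, and the other alternatives reached 69. The median N22 difference was 0.26 to 0.47 throughout. No member was called between genotypes under any alternative, but the median genotype difference ran from −0.25 to 0.07 and so changed sign. The replicate block left it at −0.06 with 0 members called, and it changed no call. No block could be fitted for N22, which is replicate 3 of both genotypes. DESeq2 with an N22 term was chosen after seeing the data (median −0.06, 0 called). For single named genes, 60 N22 values of 558 lost the call, 19 gained it and 0 reversed. With 3 libraries a group and 2 named N22, the number of libraries limits the precision more than depth does.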
